A study of Mus musculus with 73 samples.

Results

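The genes described here are 10 named components of Notch signalling and of the secretory fate choice that it controls in the intestine. They were taken as a list by name, *Dll1*, *Dll4*, *Jag1*, *Notch1*, *Notch2*, *Hes1*, *Atoh1*, *Gfi1*, *Spdef* and *Neurod1*, out of 28243 gene names that occur in the 3 expression tables of the study. The table of isolated epithelium and the table of single cells each listed 9 of them, and the table of microdissected stroma listed all 10. *Neurod1* was therefore not analysed here in epithelium or in single cells.

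In Notch signalling, a ligand on one cell (*Dll1*, *Dll4* or *Jag1*) activates a receptor (*Notch1* or *Notch2*) on its neighbour, and the cleaved receptor works with *Rbpj* to switch on repressors such as *Hes1*. In the intestinal crypt *Hes1* holds down *Atoh1*, so that a progenitor with active Notch becomes an absorptive enterocyte and a progenitor that escapes Notch keeps *Atoh1* and enters the secretory lineage. Downstream of *Atoh1*, *Gfi1* favours goblet and Paneth cells over enteroendocrine cells, *Spdef* drives goblet and Paneth maturation, and *Neurod1* acts in enteroendocrine cells.

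The study examined mouse jejunum. Epithelium was collected from 4-month-old male mice of the strain Lgr5(GFP-ires-DTR/+), which carry the diphtheria toxin (DT) receptor in the *Lgr5* locus, 48 h after DT (4 mice) or saline vehicle (control, 4 mice). Controls carried the same allele, and the toxin can reach every *Lgr5*-expressing cell, both the crypt base stem cells and the telocytes of the villus tip. The effects of losing these 2 populations cannot be told apart in the epithelial samples used here. By imaging at a later time, the paper compared villi of such mice whose tip telocytes had or had not returned. Untreated C57BL/6 mice aged 3 months gave the other data, namely stroma cut by laser capture microdissection (LCM) from crypt (3 mice), villus bottom, villus center and villus tip (5 mice each), and single cells of 8 mice sorted through 9 gates.

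The epithelial libraries held between 748458 and 4210158 unique molecular identifiers (UMIs, each 1 captured transcript), and mice 1 and 2 of each group belong to batch a and mice 3 and 4 to batch b, as the study's supplementary data list them. Levels are given as UMIs per 1000000 after TMM scaling (CPM). *Lgr5*, the gene that marks the ablated cells, stood at 44.5, 76.4, 10.6 and 24.2 CPM in control mice 1 to 4 and at 46.7, 32.6, 6.23 and 12.5 CPM in DT mice 1 to 4. The groups overlapped, and its log2 fold change was -0.75 (SE 0.32, edgeR adjusted p = 0.258). By the paper's imaging, *Lgr5* was back in the crypt at 48 h and still missing from the villus tip. Mesenchymal markers summed to between 2.91 and 20.9 CPM over all 8 mice, and the 6 endothelial markers to between 4.15 and 21.5 CPM. Of these *Cdh5* and *Kdr* were at 0 UMIs in every mouse, and *Pecam1*, the only 1 that passed the filter, had a log2 fold change of -0.98 (SE 0.31, adjusted p = 0.223).

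None of the members changed past the threshold after ablation. Of the 9 measured, 5 passed the filter on low counts (*Dll1*, *Jag1*, *Notch1*, *Hes1* and *Atoh1*). Of these 5, 0 were called at an adjusted p of 0.05 by edgeR's quasi-likelihood test, and none had an unadjusted p under 0.05. No other setting tried called a member. DESeq2 gave an adjusted p for *Hes1* alone (0.690), so it did not judge *Dll1*, *Jag1*, *Notch1* or *Atoh1*. Over all 8986 genes tested, 0.356% were called, 30 lower (0.334%) and 2 higher (0.0223%) in DT mice, and 17.3% had an unadjusted p under 0.05. The median log2 fold change of the 5 members was -0.19, against 0.0042 over all genes tested. With 5 genes and so few calls in all, a count of 0 lies near that background.

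**Figure D1:**
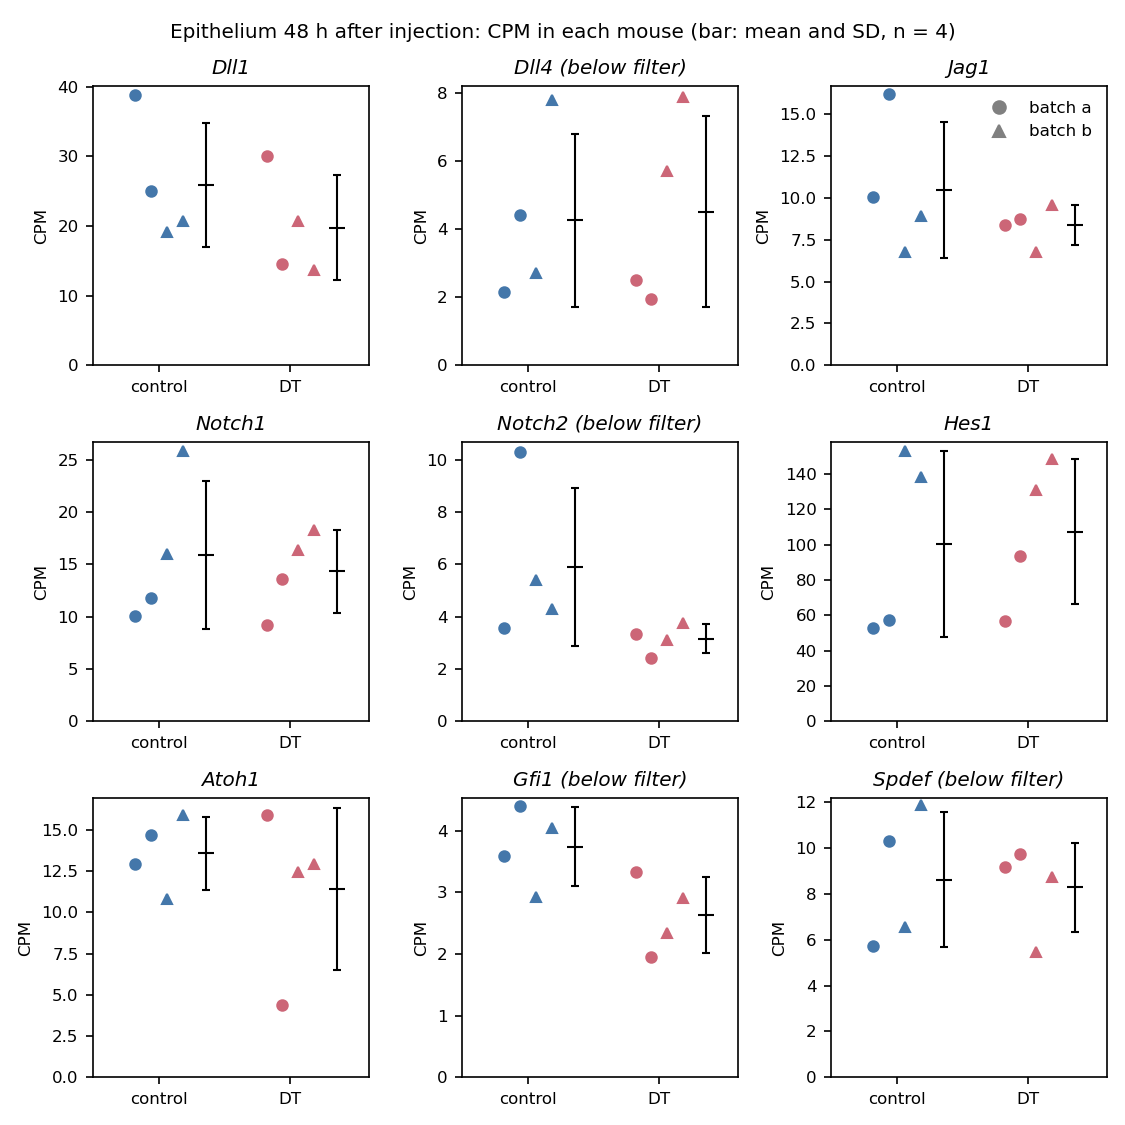
The 9 measured members in epithelium, each on its own linear axis in CPM, with 1 point per mouse, circles for batch a and triangles for batch b, and bars for the mean and SD of 4 mice. The points of DT and control mice overlap in each panel, and *Hes1* sits higher in batch b than in batch a in both groups.

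Among the ligands, *Dll1*, the Delta ligand of the crypt's secretory precursors, was the most abundant by UMI count. It stood at 38.76, 25.0, 19.2 and 20.7 CPM in control mice 1 to 4 and at 30.04, 14.6, 20.8 and 13.7 CPM in DT mice 1 to 4. DT mice 2 and 4 lay below every control mouse, whereas DT mouse 1 lay above 3 of the 4. The log2 fold change was -0.38 (SE 0.26, 95% interval -0.95 to 0.20, adjusted p = 0.459), which as a fold spans 0.518 to 1.15. *Jag1*, a ligand of the Jagged type, measured 10.1, 16.2, 6.76 and 8.89 CPM in controls and 8.34, 8.75, 6.75 and 9.57 CPM after DT. Its spread in controls came mostly from control mouse 2, the shallowest library, with 11 UMIs of *Jag1*. The log2 fold change was -0.19 (95% interval -0.83 to 0.44, adjusted p = 0.747). *Dll4*, the other Delta ligand, did not pass the filter, with 47 UMIs over the 4 control mice and 48 over the 4 DT mice. It averaged 4.27 ± 2.55 CPM in controls and 4.52 ± 2.80 CPM after DT (SD, n = 4, two-sided exact permutation p = 0.914, adjusted p = 0.914 over the 4 members tested this way).

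Of the receptors, *Notch1* measured 10.1, 11.8, 16.01 and 25.9 CPM in controls and 9.18, 13.6, 16.4 and 18.3 CPM after DT. The order of the mice was the same in both groups, with batch b above batch a, and the log2 fold change was -0.13 (SE 0.25, 95% interval -0.67 to 0.41, adjusted p = 0.804). *Notch2* fell below the filter. Its values were 3.59, 10.3, 5.41 and 4.31 CPM in controls, from 5, 7, 24 and 16 UMIs, and 3.34, 2.43, 3.12 and 3.74 CPM after DT, from 4, 5, 12 and 9 UMIs. DT mice were lower in 4 of 4 pairs of the same number, but the groups overlapped, since DT mouse 4 lay above control mouse 1. Mice of the same number share a batch and are not known to be paired otherwise, here and below. The two-sided exact permutation p was 0.0571 (adjusted p = 0.114), where 4 against 4 mice can give no less than 0.0286. The value was 0.0286 without control mouse 1, chosen among 8 such omissions. In edgeR without the filter its adjusted p was 0.499.

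*Hes1*, the repressor that Notch induces, was the most abundant member by UMI count, with 39 to 678 UMIs in a mouse. Control mice 1 to 4 gave 53.1, 57.3, 153 and 138 CPM and DT mice 1 to 4 gave 56.7, 93.4, 131 and 149 CPM. The levels separated by batch and not by treatment, because the control mice of batch b stood above those of batch a with no overlap, and DT mice fell within the range of the controls. With batch as a term the log2 fold change was 0.17 (SE 0.20, 95% interval -0.25 to 0.60, adjusted p = 0.659). Within batches the log2 ratio of the group means was 0.44 in batch a and -0.057 in batch b. The sign rests on DT mouse 2, as without it the log2 fold change was -0.024.

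*Atoh1*, a factor of the secretory lineage, measured 12.9, 14.7, 10.8 and 15.9 CPM in controls, a narrow range from 10 to 59 UMIs. After DT it measured 15.9, 4.38, 12.5 and 12.9 CPM. DT mouse 2, with 9 UMIs, lay below all control mice, and the other 3 fell inside the control range. The log2 fold change was -0.25 (SE 0.33, 95% interval -0.97 to 0.47, adjusted p = 0.713), and it was 0.019 without DT mouse 2. The interval, as a fold, reached from 0.509 to 1.39.

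*Gfi1* and *Spdef*, which act after *Atoh1*, both lay below the filter. *Gfi1* measured 3.59, 4.41, 2.93 and 4.04 CPM in controls and 3.34, 1.95, 2.34 and 2.91 CPM after DT, from 3 to 15 UMIs a mouse. It was lower in 4 of 4 pairs with overlapping groups (two-sided exact permutation p = 0.0571, adjusted p = 0.114). Immune markers moved in the same direction. All 8 of them had negative log2 fold changes, with a median of -0.59, and none of the 8 was called. Their summed level ranged from 982 to 2172 CPM in controls and from 721 to 1144 CPM after DT. Such markers are not all specific to immune cells. *Cd74*, a marker used to name immune-like single cells, was seen in 61.2% of epithelial-like and 7.5% of immune-like cells. In the single cells below, 7 of the 8 cells with a UMI of *Gfi1* were immune-like, and the part of immune cells in the epithelial values was not tested. Fewer cells of a type and less RNA per cell cannot be told apart in bulk samples. *Spdef* measured 5.74, 10.3, 6.54 and 11.9 CPM in controls and 9.18, 9.73, 5.45 and 8.74 CPM after DT. The groups interleaved, with means of 8.60 ± 2.93 and 8.27 ± 1.92 CPM (SD, n = 4, two-sided exact permutation p = 0.857, adjusted p = 0.914).

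The other genes of the pathway and of fate choice were not called by edgeR, with 0 of 42 tested genes past the threshold and 9 of 42 at an unadjusted p under 0.05. DESeq2 called none of them, where a gene that it left without an adjusted p counts as not called. Over all genes tested by edgeR, 0.356% were called and 17.3% had an unadjusted p under 0.05. With 42 genes, both counts lie near that background. Of 7 further ligands and receptors, 6 were listed and none passed the filter, and summed they reached at most 4.41 CPM in a mouse. Of 32 genes of Notch processing and transduction, 22 were tested and 0 called, with a median log2 fold change of -0.19. *Rbpj*, the DNA-binding partner of the cleaved receptor, had a log2 fold change of 0.038 (SE 0.19), and *Adam10*, the protease of the first cleavage step, 0.091 (SE 0.17). *Rfng*, a Fringe glycosyltransferase that modifies Notch, was the only 1 of the 22 whose groups did not overlap. It stood at 43.8, 39.7, 30.2 and 29.1 CPM in controls and 28.4, 25.3, 22.9 and 24.1 CPM after DT (log2 fold change -0.48, SE 0.17, adjusted p = 0.232). Over all genes tested, 1.87% had every DT mouse below every control mouse. Of the other Notch targets, 4 of 9 were tested and 0 called. *Hes6*, a relative of *Hes1* that does not repress like it, was higher in 4 of 4 pairs (log2 fold change 0.53, SE 0.18, adjusted p = 0.227), and *Dtx1*, an E3 ligase of the pathway, was lower in 4 of 4 pairs (log2 fold change -0.78, SE 0.34, adjusted p = 0.270).

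Further secretory factors gave 0 calls among the 5 of 21 that passed the filter, and all 5 had log2 fold changes above 0, from 0.034 for *Foxa3* to 0.39 for *Creb3l1*. Among the 16 below the filter, *Pou2f3* and *Neurog3* are named here after their values were seen, because their groups did not overlap. *Pou2f3*, the factor that makes tuft cells, measured 3.59, 2.94, 1.58 and 4.85 CPM in controls and 0, 0, 1.56 and 0.416 CPM after DT, from 5, 2, 7 and 18 UMIs and 0, 0, 6 and 1 UMIs. *Neurog3*, the factor that starts the enteroendocrine lineage, went the other way, from 0.718, 2.94, 4.28 and 5.66 CPM in controls to 5.84, 6.81, 7.79 and 10.8 CPM after DT. Among tested genes 1.87% had every DT mouse below, and 1.21% every DT mouse above, every control mouse. These shares leave out genes below the filter, such as *Pou2f3* and *Neurog3*. Of the absorptive factors 11 of 11 were tested and 0 called, and *Hnf4a* and *Hnf4g*, which maintain enterocyte identity, had log2 fold changes of -0.11 (SE 0.17) and -0.12 (SE 0.19). *Prdm1*, a repressor of the neonatal enterocyte program, and *Maf* were lower in 4 of 4 pairs, with log2 fold changes of -0.98 (SE 0.27, adjusted p = 0.190) and -0.94 (SE 0.30, adjusted p = 0.223).

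Genes of mature secretory cells were called lower in the same mice, in the tuft and Paneth lists. Of 47 mature genes 37 were tested, and 10 were called, all lower after DT, or 27% against 0.334% of all genes tested. The lists were chosen with results of these mice known, so their direction is not independent evidence. In the tuft list, genes of the chemosensory cells, 6 of 7 tested genes were called lower, with a list median of -3.15. All 7 had negative log2 fold changes, of -1.10 or lower. *Dclk1*, the classical tuft marker, went from 18.7, 13.2, 15.1 and 31.2 CPM to 3.34, 4.38, 1.04 and 1.25 CPM (log2 fold change -3.21, SE 0.47, adjusted p = 0.029). Every DT mouse lay below every control mouse, and *Trpm5*, *Alox5ap*, *Rgs13* and *Sh2d6* were among the others called. All 10 tested Paneth genes had negative log2 fold changes, of -1.04 or lower, with a list median of -2.49. Of these, 4 were called, the lectin *Itln1*, the defensins *Defa24* and *Defa26*, and the pentraxin *Mptx2*. *Itln1* went from 738, 704, 1903 and 893 CPM to 295, 157, 327 and 148 CPM (log2 fold change -2.12, SE 0.37, adjusted p = 0.034). Defensin genes are near-identical copies, so their separate counts are uncertain.

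Goblet and enteroendocrine genes gave 0 calls among 9 and 11 tested genes, with medians of -0.35 and -0.63. In each list 4 genes had an unadjusted p under 0.05, against 17.3% of all genes tested. All 11 enteroendocrine genes had negative log2 fold changes, of -0.23 or lower. For 2 of these 11 every DT mouse lay below every control mouse, against 1.87% of all genes tested. In the goblet list 7 of 9 log2 fold changes were negative. *Zg16*, a lectin of the mucus, had a log2 fold change of -0.90 (SE 0.32, adjusted p = 0.232), *Fcgbp*, a mucus protein, one of -0.89 (SE 0.25, adjusted p = 0.192) and *Muc2*, the main secreted mucin, one of -0.73 (SE 0.29, adjusted p = 0.245). *Gip*, an incretin hormone, stood at 299, 188, 286 and 332 CPM in controls and 139, 119, 146 and 101 CPM after DT, without overlap, at an adjusted p just above the threshold (0.0506). The number of mature genes called depended on single libraries and on the model. It was 2 without control mouse 1, 5 without control mouse 3, 3 without control mouse 4, 5 without DT mouse 2, 2 without DT mouse 3 and 6 without DT mouse 4. With the mouse number as a block it was 2.

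**Figure D2:**
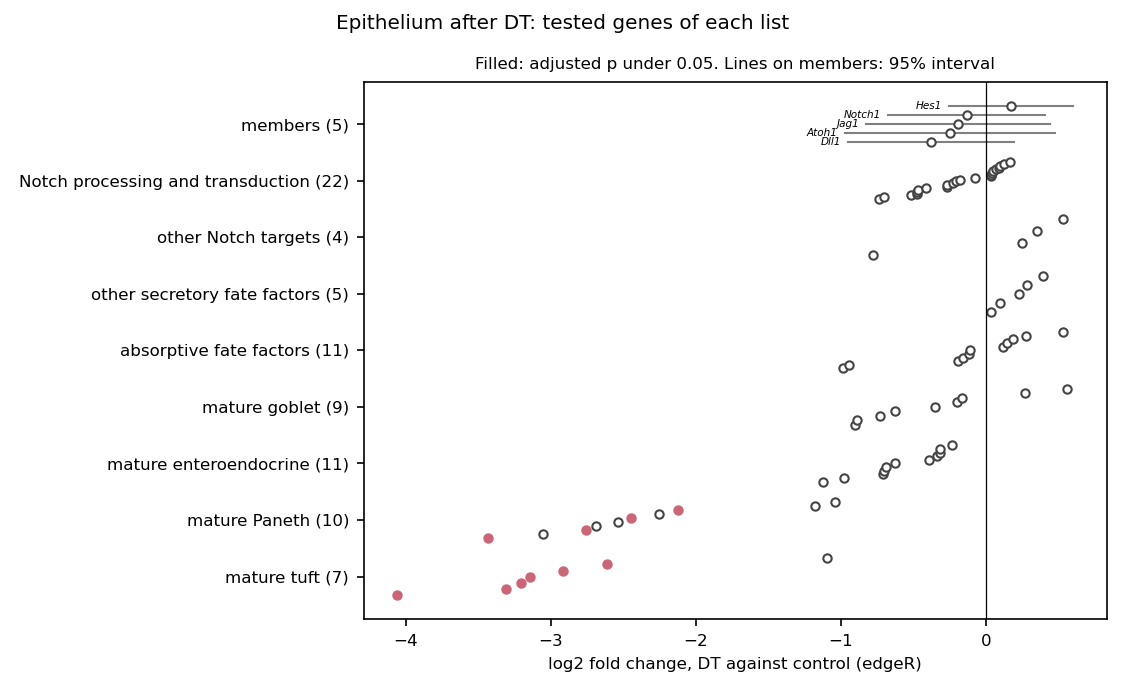
Log2 fold changes of DT against control on the x axis for the tested genes of each list, 1 circle per gene, filled where the adjusted p is under 0.05, with the number of genes in brackets and 95% intervals on the 5 named members. The members and the other regulators lie around 0 between -0.98 and 0.53, whereas the filled circles, all tuft or Paneth genes, lie at -2.12 or lower.

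Regulator and mature gene levels were set against each other by dividing each regulator by the summed CPM of the mature genes of the cells it specifies, as a log2 ratio in each mouse. The fall of the mature genes was known when the ratios were chosen, and a regulator that stays level then gives a higher ratio, so the ratios are a description with no test. For *Atoh1* over goblet, Paneth and enteroendocrine genes the ratio was -10.13, -9.70, -11.14 and -10.45 in controls and -9.19, -10.57, -9.46 and -8.75 after DT. The mean difference was 0.86, or a fold of 1.82, with 3 of 4 pairs higher, and it was 0.50 with the mean of log2(CPM + 1) over the mature genes in place of their sum. For *Spdef* over goblet and Paneth genes the ratio was -11.15, -10.10, -11.80 and -10.78 in controls and -9.85, -9.34, -10.48 and -9.18 after DT. It was higher in 4 of 4 pairs, by 1.25, or a fold of 2.37, with overlapping groups. For *Gfi1* over the same genes the mean difference was 0.78, a fold of 1.72, with 3 of 4 pairs higher. In the single cells below, 7 of the 8 cells with its UMIs were immune-like and none was goblet-like or Paneth-like. A ratio for *Neurod1* was not computed. Proliferation genes had positive log2 fold changes in 12 of 12 cases (median 0.50) with 0 called, and their part in these ratios was not tested.

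**Figure D3:**
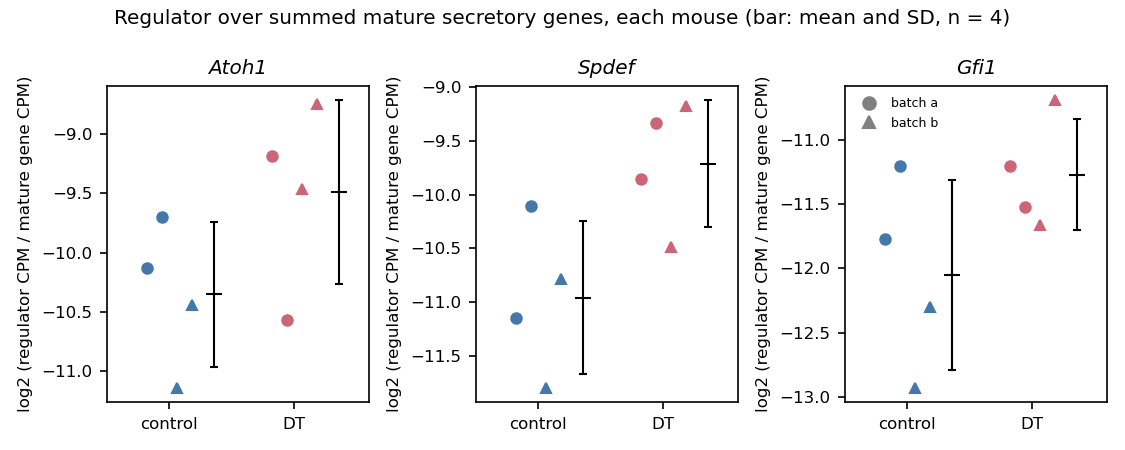
Log2 ratio of *Atoh1*, *Spdef* and *Gfi1* to the summed CPM of mature secretory genes in each mouse, circles for batch a and triangles for batch b, with the mean and SD of 4 mice. The DT mice lie higher on average by 0.86, 1.25 and 0.78, and the groups overlap in each panel.

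By the likeness of their pattern over the 8 mice, after removal of the batch means of log2 CPM, *Zer1* (Pearson r = 0.989), *Adcy9* (0.969) and *Nupl1* (0.964) were most like *Atoh1*. Most like *Hes1* were *Nxt1* (0.994), *Cand1* (0.991) and *Hist1h4k* (0.972). These are the highest of 8986 coefficients over 8 mice that share treatment groups and libraries, and are given as a description.

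Single cells showed in which cells the members were detected, since the bulk values cannot. After filters of 400 to 8000 UMIs and at least 250 genes, 2347 wells on 34 plates from 8 mice were kept, and the 380 well barcodes recur by design, 377 of them on more than 1 plate. Clusters were named from marker genes with the members held out, giving 1667 epithelial-like, 335 mesenchymal-like and 200 immune-like cells and 1 unnamed cluster of 145 cells led by mitochondrial transcripts. No cluster was endothelial-like. Epithelial-like cells showed *Vil1* in 81.8% and *Krt8* in 81.0%, and *Pdgfra* in 0.180%. The gates did not follow the labels, as 72 of 73 kept cells of the CD45 gate and 62.5% of the kept cells of the PDGFRa singlet gate were epithelial-like, so classes were used in place of gates. No cluster was tuft-like or enteroendocrine-like, and 1 epithelial-like cluster of 116 cells stayed without a finer name. Its leading genes included *Gip*, an enteroendocrine hormone, and *Rgs13*, a tuft gene, and its marker scores were highest for tuft cells, of whose markers it had 0 above the detection minimum of 10% of cells. Of the enterocyte-like cells, 31 lay in a cluster led by histone genes.

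Detection of the members was sparse. No member was seen in 92.7% of the epithelial-like cells, 111 had a UMI of 1 member and 11 of more than 1. Intervals below are exact 95% binomial intervals over cells, limits given for a count of 0 are 3 counts over the number of cells, both cover counting error only, and no test was made, as the cells of a mouse are not replicates. *Hes1* was seen in 58 of 1667 epithelial-like cells (3.48%, 2.65 to 4.47%), and in 0 of 200 immune-like cells, where a count of 0 leaves room for up to 1.5%. The median depth was 1559 UMIs in epithelial-like and 666.5 in immune-like cells. It was seen in 17 of 109 crypt progenitor-like cells (15.6%, 9.36 to 23.8%) and 26 of 1378 enterocyte-like cells (1.89%, 1.24 to 2.75%), at median depths of 2973 and 1437.5 UMIs. Per 10000 UMIs, which takes depth into account, *Hes1* was at 0.668 in progenitor-like and 0.110 in enterocyte-like cells. In mice A and F, which gave 63 and 17 progenitor-like cells, the level was 0.750 and 0.836 in these cells against 0.127 and 0.280 in enterocyte-like cells. Progenitor-like cells of the other mice, 15 or fewer in each, held no UMI of *Hes1*. Thinned to 400 UMIs a cell, 1 progenitor-like and 3 enterocyte-like cells were left with *Hes1*, too few to order the classes.

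*Spdef* and *Atoh1* were concentrated in a small goblet-like cluster of 26 cells led by *Zg16*, *Tff3* and *Fcgbp*. Of these cells 7 held *Spdef* (26.9%, 11.6 to 47.8%) and 4 held *Atoh1* (15.4%, 4.36 to 34.9%). Among enterocyte-like cells 0 of 1378 held *Spdef*, with an upper limit of 0.218%, and 1 held *Atoh1* (0.0726%). Of the 38 Paneth-like cells, led by *Defa17* and *Defa24*, 1 held *Spdef* and 1 *Atoh1*. Per 10000 UMIs, *Spdef* was at 1.497 in goblet-like cells and 0.470 in Paneth-like cells, the latter from 3 UMIs of 1 cell. After thinning, 4 of the 26 goblet-like cells kept *Spdef* and 0 kept *Atoh1*. The goblet-like cells with *Spdef* came from mouse A (4 of 10 cells) and mouse F (3 of 9 cells). The 6 epithelial-like cells with *Atoh1* and the 9 with *Spdef* shared 3 cells.

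*Gfi1* was seen mostly in immune-like cells. It was seen in 0 of 1667 epithelial-like cells, where a count of 0 limits cells with a UMI to 0.180% and not cells that express the gene, in 0 of 335 mesenchymal-like cells and in 7 of 200 immune-like cells (3.50%, 1.42 to 7.08%), although the immune-like cells were shallower. These 7 cells came from mice B (3 of 83), C (3 of 115) and G (its only 1). All 7 were sorted through the PDGFRa singlet gate, as were 199 of the 200 immune-like cells. The eighth cell lay in the unnamed cluster, where *Vil1* was seen in 74.5% and *Epcam* in 73.1% of cells. With cells down to 200 UMIs and 100 genes kept, 0.0399% of epithelial-like cells held *Gfi1*, and the isolated epithelium held its UMIs in all 8 mice. After thinning, 3 immune-like and 0 epithelial-like cells kept *Gfi1*.

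Ligands and receptors were near the limit of detection. *Dll1* was seen in 19 (1.14%), *Dll4* in 17 (1.02%), *Jag1* in 10 (0.60%), *Notch1* in 11 (0.660%) and *Notch2* in 5 (0.30%) of 1667 epithelial-like cells, and each in 0 of 200 immune-like cells. A count of 0 in that class leaves room for up to 1.5% at a lower depth, so background of the same size could not be separated from expression. *Notch2* was in 0 of 1378 enterocyte-like cells, in 4 of 109 progenitor-like cells (3.67%, 1.01 to 9.13%) and in 7 of 335 mesenchymal-like cells (2.09%, 0.844 to 4.26%). Of those 7 mesenchymal-like cells, 6 came from mouse G, which gave 198 of the 335. *Jag1* was in 4 of the mesenchymal-like cells, *Dll1* and *Notch1* in 2 each and *Dll4* in none (upper limit 0.896%).

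**Figure D4:**
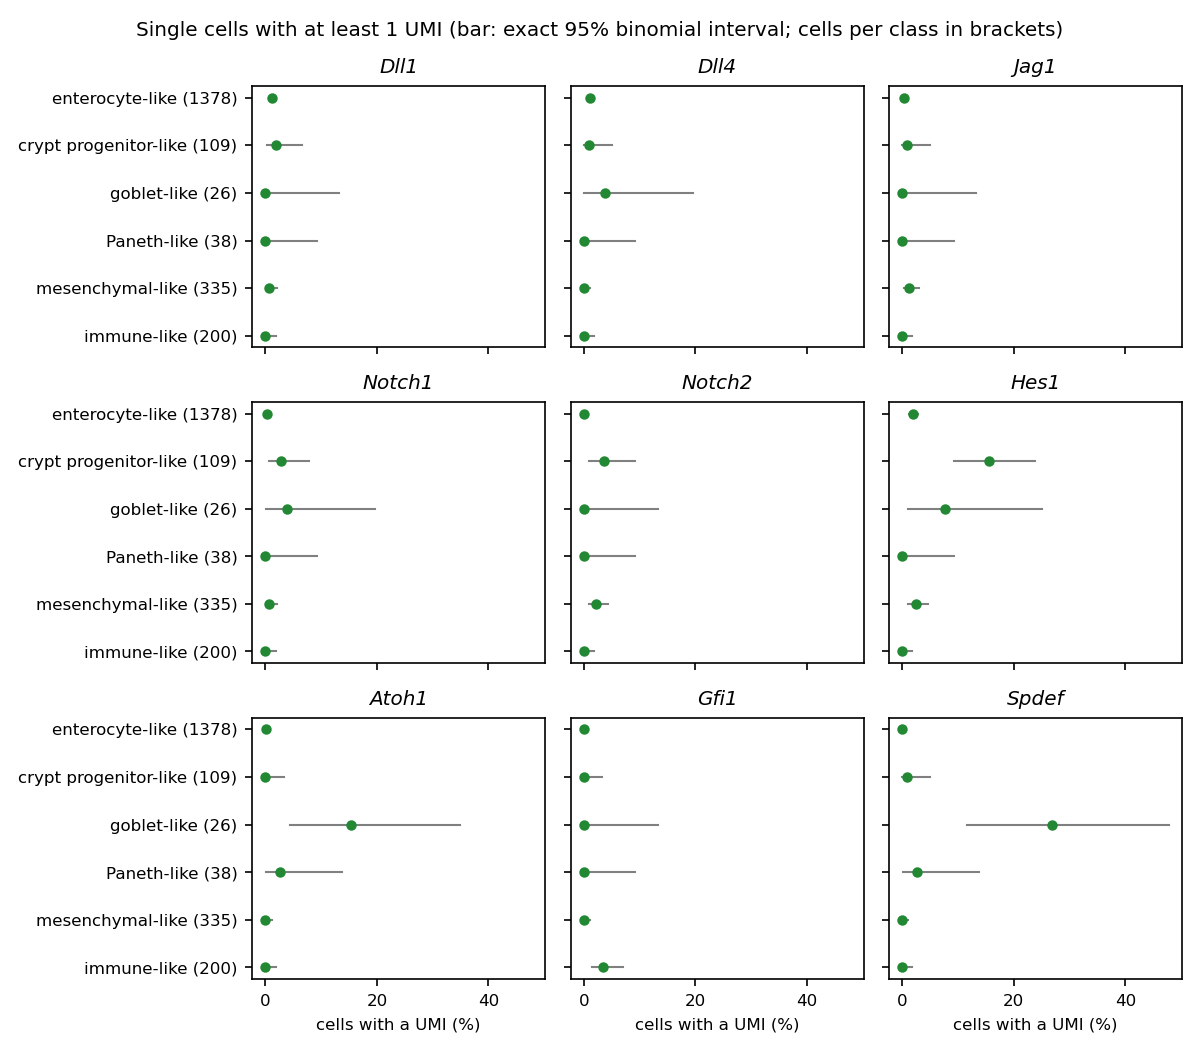
Percent of single cells with at least 1 UMI of each of 9 members on the x axis, by cell class with the number of cells in brackets, with exact 95% binomial intervals. The unnamed clusters are not shown. Among the classes shown, *Hes1* is highest in crypt progenitor-like cells (15.6%), *Atoh1* and *Spdef* in goblet-like cells (15.4 and 26.9%) and *Gfi1* in immune-like cells (3.50%).

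In the microdissected stroma the members were compared between villus tip and crypt, on transcripts per 1000000 rescaled after removal of enterocyte genes (ppm). No member was called, nor any of 13535 genes tested by limma (0%), with 441 genes at an unadjusted p under 0.05. Of the 10 members 6 passed the filter. Stroma of every zone still held Paneth transcripts, which summed to between 9.08 and 90077 ppm in a mouse of the villus tip, and goblet transcripts, and the part of such epithelial RNA in these values was not tested.

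*Hes1* was the most abundant member in stroma and above 0 in all 29 sections. It stood at 85.7, 106 and 100.03 ppm in the crypt of mice 1 to 3 and had a median of 89.2 ppm (67.7 to 147) in the villus bottom, 20.01 ppm (1.61 to 115) in the villus center and 54.2 ppm (7.70 to 191) in the villus tip. Crypt and villus bottom held a narrow range, and single mice of the upper zones lay both near it and far below it. The lowest values of center and tip were those of mouse 4 (4.32 and 7.70 ppm) and mouse 5 (1.61 and 11.8 ppm), which gave no crypt. In mice 1 to 3, which gave both zones, the tip was at 191, 91 and 54.2 ppm. The log2 difference of tip against crypt was -1.27 (95% interval -3.59 to 1.04, limma adjusted p = 0.991), and it was -0.27 with the mouse as a block and -1.92 to -0.72 with a mouse left out. *Dll1* had the lowest unadjusted p of the members, with 46.8, 20.3 and 7.72 ppm in the crypt and 2.33, 1.89, 17.8, 3.70 and 4.18 ppm in the tip of mice 1 to 5. The tip was lower in mice 1 and 2 and higher in mouse 3 (log2 difference -1.95, 95% interval -4.17 to 0.27, limma adjusted p = 0.991). The exact permutation p was 0.0714, or 0.714 when adjusted over the 10 members, and took no account of mice that gave both zones. The log2 difference was -3.03 without mouse 3 and -1.18 without mouse 1.

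*Notch1* measured 3.04 to 5.08 ppm in the crypt and 0.0880 to 44.4 ppm in the tip (log2 difference 1.13, limma adjusted p = 0.991), and the difference was 2.12 without mouse 1 and 0.60 without mouse 4. *Neurod1*, measured in these data alone, was at 0 in 15 of the 29 sections and reached at most 3.96 ppm in a mouse. *Dll4*, *Jag1* and *Notch2* stayed below the filter of 5 ppm with zone means from 0.826 to 4.31 ppm. The secretory factors varied widely between mice of 1 zone. *Atoh1* reached 67.6 ppm in the villus center of mouse 5 and was 0 in that of mouse 2, *Gfi1* reached 96.4 ppm in the tip of mouse 2 against 1.05 to 6.96 ppm in the other mice, and *Spdef* reached 174 ppm in the tip of mouse 3 against 0.0998 to 16.3 ppm.

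**Figure D5:**
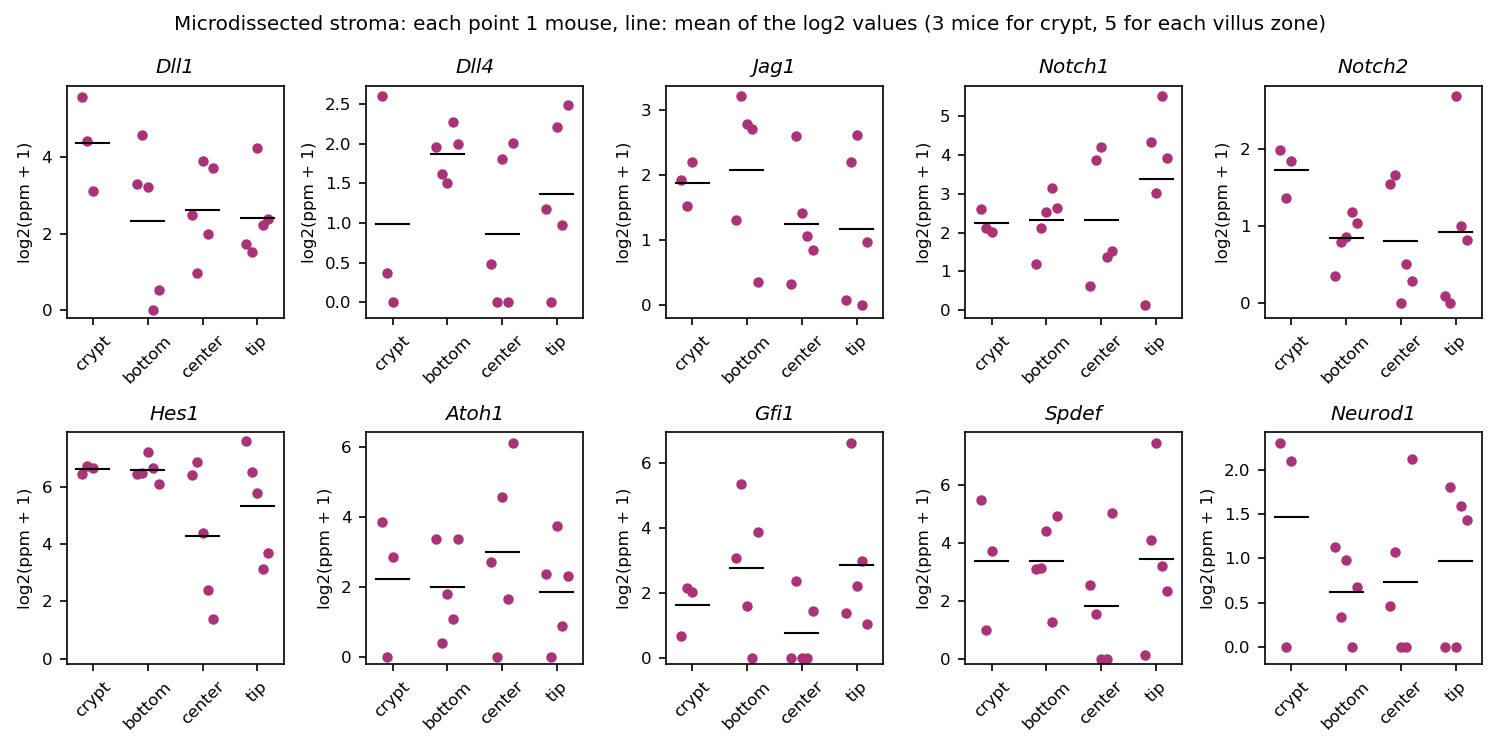
Levels of the 10 members in microdissected stroma as log2(ppm + 1), 1 point per mouse and a line at the mean of the log2 values, for crypt (3 mice) and villus bottom, center and tip (5 mice each). *Hes1* lies within a narrow band in crypt and villus bottom, and the ranges of crypt and tip overlap for each member.

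The genes lie on several chromosomes of GRCm38 (GENCODE vM21). *Hes1* is on chromosome 16 (30064384 to 30067796, plus strand), *Atoh1* on chromosome 6 (64729125 to 64731245, plus), *Spdef* on chromosome 17 (27714352 to 27728955, minus), *Gfi1* on chromosome 5 (107716657 to 107726036, minus) and *Dll1* on chromosome 17 (15367354 to 15376872, minus). *Dll4*, *Jag1*, *Notch1* and *Neurod1* lie on chromosome 2 and *Notch2* on chromosome 3. *Hes1*, *Atoh1*, *Spdef* and *Jag1* overlap no other annotated gene, whereas the remaining 6 overlap at least 1. *Dll1*, *Dll4* and *Gfi1* overlap genes of the other strand only, whose reads cannot be told apart where strand was not used in counting. *Notch1*, *Notch2* and *Neurod1* overlap at least 1 gene of the same strand, which strand does not resolve. The paper gives strand-specific settings for LCM and single cells.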

How the data were processed

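The members and gene lists were chosen with earlier results of these data known. Per the labels, base calls were converted with bcl2fastq 2.15.0.4. For epithelium and single cells the authors deposited UMI counts per gene (zUMIs, GRCm38, mcSCRB-seq and MARS-seq), not normalized. For LCM the authors deposited TPM (kallisto, then sleuth, against GRCm38 coding transcripts), which keep no depth. The labels name separate mice.

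The depth of each epithelial library stands in the report. Genes above 10 UMIs per 1000000 in at least 2 mice were tested with edgeR 4.0.16 (TMM, robust quasi-likelihood, batch as a term, R 4.3.3), with DESeq2 1.42.0 beside it. Members below the filter were compared by exact permutation over mice. LCM sections of a mouse and zone were averaged, then tested with limma 3.58.1 on log2(ppm + 1). The enterocyte genes removed, 378, were taken from the control epithelium here, a list far longer than the authors', which came from other enterocyte data. Cells were clustered with Seurat 5.3.0 (11 components, resolution 2) and named by marker share and level, a rule set after a first one left epithelial clusters unnamed. The authors subtracted a background from empty wells, which was not done here, and no doublet caller was run because some gates sorted pairs. Of the wells, 352 matched no sample and were not used. On simulated data edgeR recovered 58 of 100 genes shifted by log2 1 and 98 of 100 shifted by 2 in the ablation design, and limma 11 and 78 of 100 at shifts of 3 and 6 in the LCM design. Same-numbered DT and control mice deviated together (r = 0.61, 0.41, 0.66 and 0.58), but not within batches (-0.16 and -0.06). Their numbers follow the batches and pair no mice beyond that, so counts of pairs are a description. LCM zones share mice. Named genes are the members, *Lgr5*, each list's called genes and up to 4 of its most abundant, and the 3 genes most like *Atoh1* and *Hes1*. Others named were chosen after their values were seen.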

Additional observations from a re-analysis of the deposited data

Results flagged for a closer look

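In the microdissected stroma, 5 values stood apart from the other 4 mice of their zone by a gap test. It was run on 54 groups of stroma and epithelium together. Chance would flag about 1 in 20 if values were normally spread, which ppm without a log need not be. *Dll1* in the villus tip was 17.8 ppm in mouse 3 against a median of 3.02 ppm in the others. *Notch2* in the villus tip was 5.46 ppm in mouse 3 against 0.414 ppm. *Spdef* in the villus tip was 174 ppm in mouse 3 against 6.11 ppm, and in the villus center it was 31.9 ppm in mouse 5 against 0.940 ppm. *Gfi1* in the villus tip was 96.4 ppm in mouse 2 against 2.61 ppm. No epithelial value of a member stood apart in this way, in groups of 4 mice.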

How the results depend on the processing

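The count of 0 members called after ablation held under RLE factors, no filter, no batch term, the mouse number as a block, each batch alone and each mouse left out. *Jag1* was not tested in either batch alone. Under DESeq2 the count rests on *Hes1*, the only member with an adjusted p there. The 32 genes called of all tested became 143 under DESeq2, 635 without the filter, 1 without the batch term, 0 in batch a alone, 5 in batch b alone and 3 to 41 with a mouse left out. The 10 mature secretory genes became 24 without the filter, 1 without the batch term, 0 in batch a alone, 3 in batch b alone and 2 to 10 with a mouse left out. Of the other Notch and fate genes 3 were called without the filter, namely *Maf* (log2 fold change -0.93), *Spen* (-0.68) and *Prdm1* (-0.97). With mouse numbers as the block, 3 genes in place of 32 were called in all, 2 of them mature secretory genes in place of 10. No member and no other Notch or fate gene was called with the block. The members' log2 fold changes were then -0.36 for *Dll1*, -0.20 for *Jag1*, -0.14 for *Notch1*, 0.15 for *Hes1* and -0.21 for *Atoh1*.

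Signs of small differences turned. *Notch1* was 0.12 in batch a alone and -0.27 to 0.12 with a mouse left out, *Hes1* was -0.077 in batch b alone and -0.024 to 0.28 with a mouse left out, and *Atoh1* ran from -0.45 to 0.019. *Jag1* fell below the filter in 2 of the fits with a mouse left out. Differences in CPM with a mouse left out ran from -0.882 to 1.43 for *Dll4*, from -3.51 to -1.28 for *Notch2* and from -1.28 to 0.751 for *Spdef*, and the ratio difference of *Gfi1* from 0.49 to 1.06. Relabelling mice only within batches, an alternative added after seeing the data, gave an exact permutation p of 0.0556 for *Notch2* and for *Gfi1*, the smallest it can give. In stroma, 2 genes were called without the filter, and with a mouse left out *Atoh1* ran from -1.02 to 0.31, *Spdef* from -1.32 to 1.92 and *Gfi1* from 0.54 to 1.67. The share of epithelial-like cells with *Hes1* was 2.31% when cells down to 200 UMIs and 100 genes were kept. The cause of these changes was not tested. Depth limits the 4 members below the filter, such as *Gfi1* with 3 to 15 UMIs a mouse, for which small differences were not detectable.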
